A study of Mus musculus with 6 samples.

Results

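The receptors for the colony-stimulating factors were followed through the immune cells of the mouse brain by 4 genes: Csf1r, Csf2ra, Csf2rb and Csf3r. They were named as a list and not chosen by a cutoff, and all 4 were present among the 19848 genes of the deposited RNA table. The cells came from whole brains of female C57BL/6 mice that had been perfused with saline, and immune cells had been enriched on a Percoll gradient. The 4 groups were 12-week-old and 72-week-old mice, called young and aged here, each given either vehicle (control, with an unperturbed gut microbiota) or antibiotics (a depleted gut microbiota). Single cells were profiled by CITE-seq, in which RNA and bound antibody barcodes are sequenced together, from 24 brains that had been combined into 12 hashtagged pools, 3 per group.

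Colony-stimulating factors are secreted proteins that keep myeloid cells alive and drive their division and maturation. Csf1r encodes the receptor tyrosine kinase for CSF1 and IL-34, on which microglia depend for survival, and it is the target of the inhibitors used to deplete them. Csf2ra encodes the ligand-binding chain of the GM-CSF receptor, and Csf2rb the signalling chain that it shares with the receptors for IL-3 and IL-5. Csf3r encodes the receptor for G-CSF, the main growth factor of neutrophils.

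The deposited metadata held 13052 cells, 3263 in each group, and the labels do not say how this equal number was reached. The authors' own labels divided them into 9403 microglia, 506 border-associated macrophages (BAM), 634 Ly6CLow cells, 389 Ly6CHigh cells, 352 Ly6C+Ly6G+ cells and 5 lymphoid classes, of which the 9 NK cells were too few to use. Raw depth per pool ran from 5745242 to 13742781 UMIs. The 6 young pools shared 1 well of the 10x instrument and the 6 aged pools another, so age and well cannot be told apart, and the arm and the hashtag numbers cannot be told apart either. The wells shared 59 cell barcodes. Shallow cells were unevenly spread: cells with under 2000 raw UMIs made up 54.7% of aged but 1.41% of young Ly6CHigh cells, 31.7% against 4.38% of Ly6CLow cells, 30.6% against 0.830% of Ly6C+Ly6G+ cells and 13.4% against 8.82% of microglia.

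Defining markers were checked in each myeloid class. Microglia had all 7 microglial markers at a level of 0.5 or more in both wells, BAM all 7 of theirs, Ly6CHigh cells all 5 Ly6C-high monocyte markers and Ly6C+Ly6G+ cells all 9 neutrophil markers. Ly6CHigh cells also had 6 of 9 neutrophil markers at that level in both wells, with a summed level (187.5 young, 117.6 aged) above that of their monocyte markers (100.6 and 56.5), and 2 (young) and 6 (aged) of 7 microglial markers. Ly6CLow cells had 5 (young) and 4 (aged) of 6 Ly6C-low monocyte markers at that level, and 2 of 6 dendritic cell markers in both wells. Their highest fixed marker was H2-Aa, an MHC class II gene of the dendritic cell list, at 62.2 in the young and 38.7 in the aged well. H2-Aa was not particular to them, at 36.2 and 49.9 in BAM. NK cell markers were at that level too (4 of 4 in young, 2 of 4 in aged), and the summed neutrophil markers were 5.23 in the young and 25.6 in the aged well. Both Ly6C classes are therefore called by their label only, and the part of other cell types in their values was not tested.

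RefSeq's promoter table (build GRCm38.p6) held 2 of the 4 genes, and the 250 bases before the start that the table uses are shown because the class orders below turn on these genes: Csf3r was highest in Ly6C+Ly6G+ cells and Csf2ra in Ly6CHigh cells. The start is the one in that table, and for both genes it lies inside the gene's annotated span given below, so it is not the outermost start; the transcript it belongs to is not named there. Capitals mark GAGGAA, a core sequence bound by PU.1 (encoded by Spi1), searched on both strands. The Csf3r sequence is chr4:126024409-126024658 on the plus strand and the Csf2ra sequence chr19:61228419-61228668 on the minus strand, each written 5′ to 3′ as transcribed.
Csf3r: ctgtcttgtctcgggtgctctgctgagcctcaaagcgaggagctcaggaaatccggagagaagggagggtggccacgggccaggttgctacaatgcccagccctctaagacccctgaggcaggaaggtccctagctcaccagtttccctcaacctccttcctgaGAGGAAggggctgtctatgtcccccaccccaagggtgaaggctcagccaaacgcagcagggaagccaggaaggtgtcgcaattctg
Csf2ra: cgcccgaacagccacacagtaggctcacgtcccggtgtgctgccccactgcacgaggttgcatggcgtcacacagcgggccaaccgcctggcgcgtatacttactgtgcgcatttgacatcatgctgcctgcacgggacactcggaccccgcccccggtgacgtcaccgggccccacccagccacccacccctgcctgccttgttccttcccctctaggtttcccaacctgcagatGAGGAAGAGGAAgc
GAGGAA occurred once in the Csf3r sequence, beginning 86 bases before the start, and as 2 adjoining copies beginning 14 and 8 bases before the Csf2ra start. It occurred in 23.2% of the 32851 sequences of the same length in the table, so its presence is common. TGACGTCA, a cyclic AMP response element, was found in the Csf2ra sequence 92 bases before the start and in 1.55% of all sequences, and TTGCNNAA, searched as a C/EBP core and present in 9.56%, in neither. These matches describe letters only. The genes themselves lie on chromosome 4 (Csf3r, 126023441 to 126044975), chromosome 19 (Csf2ra, 61217191 to 61228461) and chromosome 15 (Csf2rb, 78325800 to 78351001). Csf2rb has a close copy, Csf2rb2, at 78282507 to 78305721 on chromosome 15, so reads of the pair may have been assigned to either and Csf2rb values are uncertain to that extent.

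Each receptor had its own order of cell types. A level here is the mean SCT-corrected value per cell in a pool, a depth-corrected UMI number that is not scaled to gene length, so it compares one gene between cells and not different genes. In shallow cells a value above 0 need not be a detected transcript. Csf3r was 1 in every aged Ly6C+Ly6G+ cell of 370 to 608 raw UMIs and 0 in every one of 631 to 846. Values are the mean ± SD over pools with at least 10 cells of the type. Since the cell classes were made from these same cells and the genes were listed for separating them, the order is a description with no test.

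Csf1r, on chromosome 18, was highest in microglia, at 17.8 ± 1.69 (n = 12 pools), followed by BAM at 10.97 ± 1.44 (n = 12). The lowest microglial pool (15.7) stood above the highest BAM pool (13.8), and the lowest BAM pool (9) above the highest Ly6CLow pool (4.33). Ly6CLow cells had 3.53 ± 0.440 (n = 12) and Ly6CHigh cells 3.00 ± 0.646 (n = 11), with overlapping pools. B cells had 1.94 ± 0.797 (n = 12), Ly6C+Ly6G+ cells 1.76 ± 0.674 (n = 9), CD4+ cells 0.811 ± 0.372 (n = 8), ILCs 0.764 ± 0.424 (n = 11) and CD8+ cells 0.553 ± 0.251 (n = 11), each overlapping its neighbour. Csf1r was above 0 in 99.8% of microglia and 98.6% of BAM. Microglia, the largest class, held 93.6% of all Csf1r values in the table.

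Lymphocytes are not known to use Csf1r, yet at 5000 to 10000 raw UMIs it was above 0 in 23.7% of 443 CD8+ cells (Wilson 95% interval 19.98% to 27.9%, median 7047 UMIs) and 26.8% of 112 B cells (median 7060 UMIs). In raw counts, free RNA from one source keeps its genes in 1 ratio in every cell class. Csf1r was therefore divided by P2ry12, a microglial purine receptor gene, a ratio added after the levels had been seen. The values divided here are depth-corrected, so the ratio may shift with depth and cannot show whether a source is shared. The ratio was 1.68 (young) and 1.71 (aged) in microglia, 2.45 and 2.57 in CD8+ cells, and 1.92 and 2.53 in B cells. It was higher in BAM, at 4.01 and 5.20, and in Ly6CLow cells, at 6.03 and 4.05. Ly6CHigh cells had 7 in the young but 2.67 in the aged well, where shallow cells were most frequent. Those shallow aged Ly6CHigh cells had Csf1r at 4.10 and P2ry12 at 2.10, against 2.36 and 0.205 in aged Ly6CHigh cells of at least 2000 UMIs. The CD8+ ratios were thus above those of microglia, but ILCs had 1.67 in the young and 2.29 in the aged well. CD4+ cells had 2.40 and 2.65. Over Tmem119, another microglial gene, the Csf1r ratio was 2.45 (young) and 1.97 (aged) in microglia. It was 2.58 and 2.71 in CD8+ cells, 2.53 and 2.41 in ILCs, 5.33 and 3.93 in CD4+ cells and 3.47 and 3.30 in B cells. The part of free RNA in the lymphocyte values was not tested. At 52.3% of 88 Ly6C+Ly6G+ cells with Csf1r above 0 and ratios of 2.93 and 2.29, the part of free RNA in the Csf1r of these cells was not tested.

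Csf2ra had another order, led by the Ly6C classes. Ly6CHigh cells had 2.48 ± 0.941 (n = 11), Ly6CLow cells 2.08 ± 0.392 (n = 12) and Ly6C+Ly6G+ cells 1.84 ± 0.412 (n = 9), 3 classes whose pools overlapped. BAM followed at 1.23 ± 0.247 (n = 12), above every microglial pool. Microglia had 0.678 ± 0.0442 (n = 12), above every B cell pool (0.299 ± 0.0950, n = 12), and the T cell and ILC classes had 0.153 to 0.250. In cells of 5000 to 10000 raw UMIs, Csf2ra was above 0 in 88.6% of Ly6CHigh cells, 83.0% of Ly6C+Ly6G+ cells, 78.4% of Ly6CLow cells, 59.4% of BAM and 44.4% of microglia, against 9.03% of CD8+ cells.

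Csf2rb was spread more evenly. It was highest in Ly6CHigh cells (1.05 ± 0.405, n = 11), then Ly6C+Ly6G+ cells (0.751 ± 0.264, n = 9) and Ly6CLow cells (0.652 ± 0.207, n = 12), and microglia (0.473 ± 0.0620, n = 12) and BAM (0.448 ± 0.120, n = 12) did not differ beyond the spread of their pools. Each class overlapped the next in the order. CD4+ cells, CD8+ cells and ILCs had 0.0456 to 0.0665, and 0.903% of the 443 CD8+ cells of 5000 to 10000 UMIs had it above 0. The copy Csf2rb2 was lower throughout, with class means of 0.00250 to 0.132.

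A working GM-CSF receptor needs both chains, so cells with both values above 0 were counted over all cells of a class. In shallow cells such values need not be detected transcripts, so shares in classes with many shallow cells are uncertain. Both chains were above 0 in 46.5% of Ly6CHigh cells, 41.5% of Ly6C+Ly6G+ cells, 35.3% of Ly6CLow cells, 22.1% of BAM and 15.5% of microglia. The product of the 2 single shares, which independence would give, was 31.4%, 37.1%, 25.8%, 20.3% and 13.8% in the same order. The excess over the product was not seen in every well. In young Ly6CHigh cells both chains were above 0 in 69.0% against a product of 68.7%, and in aged ones, where 54.7% of cells were shallow, in 33.6% against 16.5%. Ly6CLow cells had 42.7% against 36.7% in the young and 29.7% against 18.8% in the aged well. Neither chain was above 0 in 40.7% of microglia, against 16.8% of Ly6C+Ly6G+ cells and 87.1% of CD8+ cells.

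Csf3r was highest in Ly6C+Ly6G+ cells, at 3.58 ± 1.72 (n = 9), and second in microglia, at 1.35 ± 0.120 (n = 12). Neutrophil pools ran from 1.20 to 6.35 and overlapped the microglial range of 1.19 to 1.65. Ly6CHigh cells (0.600 ± 0.151, n = 11) and BAM (0.495 ± 0.146, n = 12) lay below every microglial pool, and Ly6CLow cells had 0.201 ± 0.0666 (n = 12). Among cells of 5000 to 10000 raw UMIs, Csf3r was above 0 in 84.1% of Ly6C+Ly6G+ cells, 72.4% of microglia, 45.5% of Ly6CHigh cells and 31.3% of BAM, against 3.39% of CD8+ cells. Because microglia were so numerous, they held 86.2% of all Csf3r values, and Ly6C+Ly6G+ cells 8.29%.

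**Figure D1:**
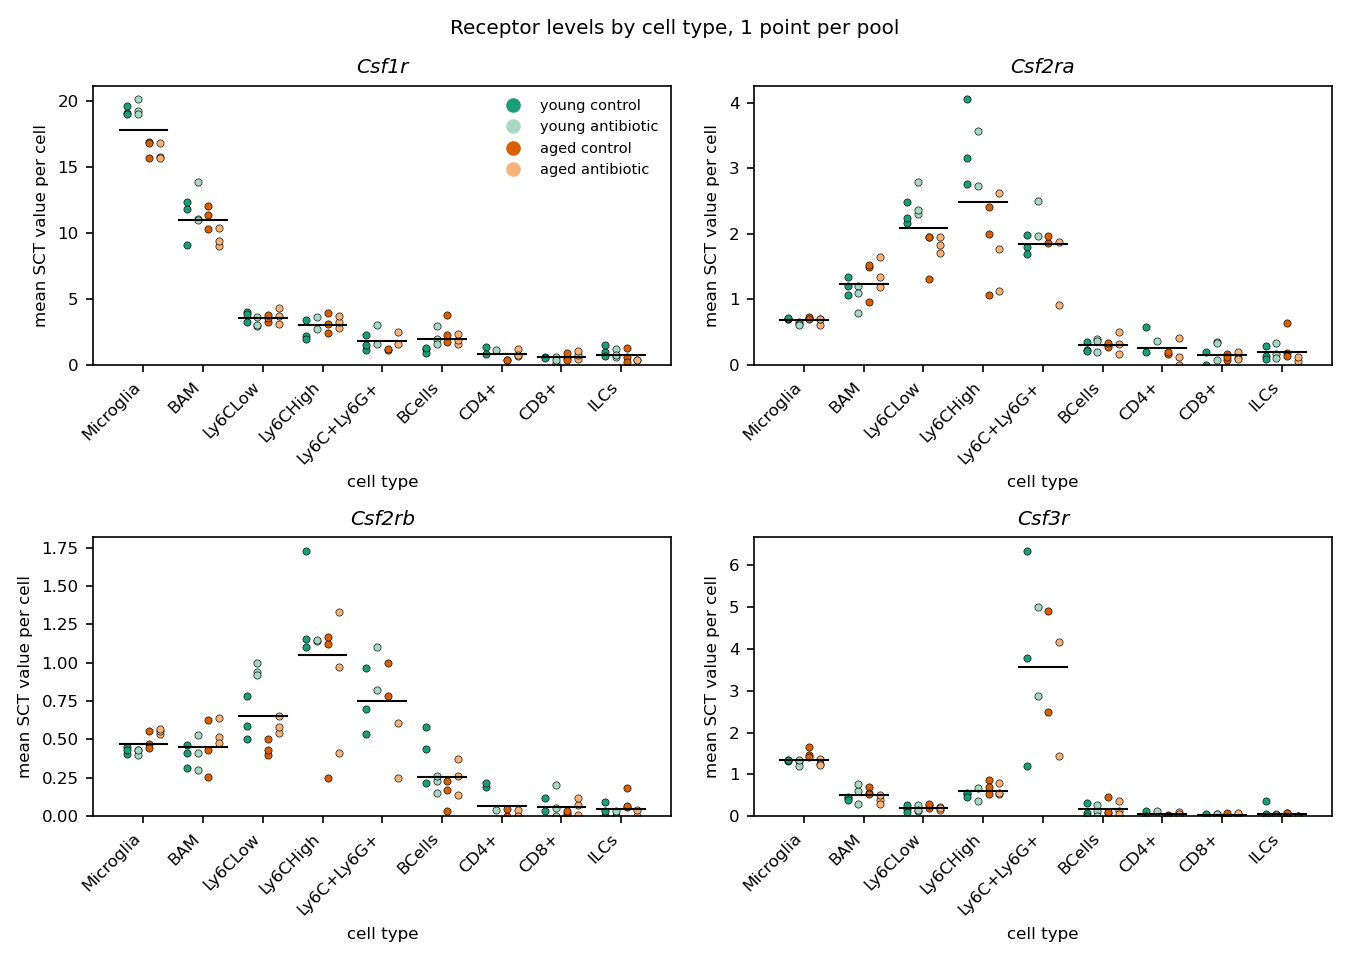
Mean SCT-corrected value per cell of each receptor gene (vertical axes, linear) in 9 cell classes, with 1 point per pool of at least 10 cells, coloured by group, and a bar at the mean over pools. Csf1r peaks in microglia at 17.8, Csf2ra and Csf2rb in Ly6CHigh cells at 2.48 and 1.05, and Csf3r in Ly6C+Ly6G+ cells at 3.58, with microglia second at 1.35.

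Neutrophil RNA was found in other classes, so Csf3r was divided by S100a8, the calprotectin gene that is among the most abundant in neutrophils. These ratios also use depth-corrected values and may shift with depth, and the part of free RNA in Csf3r was not tested. In Ly6C+Ly6G+ cells the ratio was 0.00468 (young) and 0.00455 (aged). In microglia it was 0.473 and 3.35, with S100a8 at 2.78 and 0.415 per cell against 803 and 622 in Ly6C+Ly6G+ cells. Microglial Csf3r was 1.31 in the young and 1.39 in the aged well. BAM had ratios of 1.15 and 4.00. A high ratio was not particular to these classes. CD4+ cells had 0.241 and 0.667, CD8+ cells 0.00599 and 0.350, ILCs 0.0289 and 0.433 and Ly6CLow cells 0.162 and 0.0277, from Csf3r levels of at most 0.231. B cells had 0.00661 and 0.0144, and Ly6CHigh cells 0.00867 and 0.0192. S100a9 gave 0.317 and 1.90 in microglia against 0.00330 and 0.00344 in Ly6C+Ly6G+ cells.

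**Figure D2:**
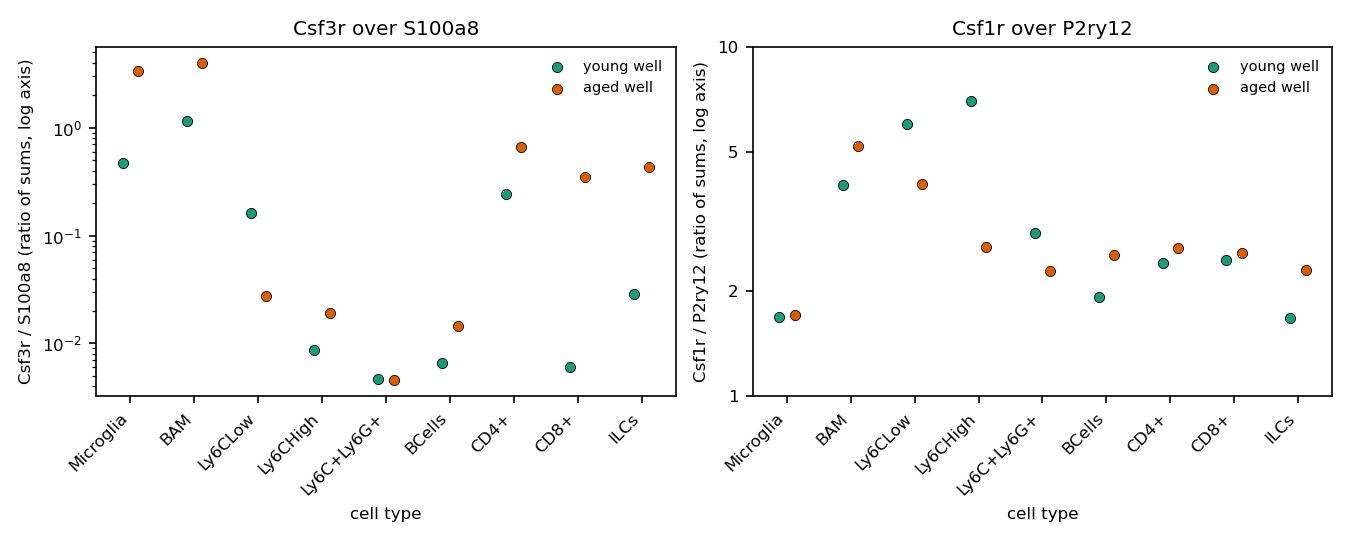
Ratio of summed values by cell class (horizontal axes) and well, on log axes, for Csf3r over S100a8 (left) and Csf1r over P2ry12 (right). The Csf3r ratio of microglia (0.473 and 3.35) lies far above that of Ly6C+Ly6G+ cells (0.00468 and 0.00455), and the Csf1r ratio of BAM (4.01 and 5.20) above that of microglia (1.68 and 1.71).

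The genes most like each receptor over the 9 classes were ranked by Pearson's r of log2 levels among genes reaching 0.5 in some class. These points share libraries and depth, and r is given as a description. Among the genes closest to Csf1r were Trem2 (r = 0.996), a microglial lipid receptor, Camk1 (0.996), Itgb5 (0.996) and Cebpa (0.995). For Csf2ra the closest were Ehbp1l1 (0.984), Rab32 (0.978), Myadm (0.972), Alox5ap (0.964), which encodes the 5-lipoxygenase activating protein of leukotriene synthesis, and Ap1s2 (0.964). Csf2rb was closest to Spi1 (0.978), the gene of PU.1, then Cd300a (0.977), Sgk3 (0.977), Rab32 (0.976) and Alox5ap (0.976). This order was not stable. Spi1 ranked 13 in young pools alone, 5 in aged pools alone and 21 by Spearman's rho. Cd300a ranked 2, 3 and 44, and Sgk3 21, 53 and 44. Csf3r was closest to Tbc1d23 (0.984), Atp6v1g1 (0.966), Trpm2 (0.965), Rab11a (0.962) and Hk3 (0.961). Ranks moved in the other lists too. In aged pools alone Camk1 ranked 30 for Csf1r, Ap1s2 55 for Csf2ra and Rab11a 50 for Csf3r. Some held closer, such as Tbc1d23 at 1 in young and 2 in aged pools. Within the family, r was 0.945 between the GM-CSF receptor chains, 0.797 between Csf2rb and Csf3r, and 0.568 between Csf1r and Csf2ra.

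Among Ly6C+Ly6G+ cells, Csf3r was low where a list of genes of immature neutrophils, called the early list, was high. The early list held Camp, Ngp, Ltf, Lcn2, Chil3, Mmp8 and the transcription factor gene Cebpe. Early refers here to neutrophil maturation and not to the first granules formed. Spearman's rho over cells was -0.69 in the 241 young cells and -0.47 in the 111 aged cells, and -0.61 in the 77 aged cells of at least 2000 UMIs. The aged values over all cells include 34 cells under 2000 UMIs, nearly all with a Csf3r of 1 or 0 that followed depth. In the young well the 121 cells at or below the median of the early list averaged 6.30 Csf3r and the 120 above it 1.21. In the aged well the means were 4.61 (56 cells) and 1.02 (55 cells), and 6.05 (39 cells) and 1.18 (38 cells) from 2000 UMIs. Raw UMI totals moved with Csf3r too (rho -0.54 in young and -0.62 in aged cells of at least 2000 UMIs), and their part in the relation was not tested.

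Late neutrophil genes, a list with Cxcr2, Retnlg, Il1b and Mmp9, had rho of 0.18 with Csf3r in young and 0.53 in aged cells, the latter 0.40 from 2000 UMIs. Ly6G antibody tags, the protein mark of neutrophils, had rho of 0.47 in young cells and 0.34 in aged cells of at least 2000 UMIs, but 0.023 over all aged cells. Csf1r rose with Csf3r in the deeper cells as well, at rho 0.34 (young) and 0.43 (aged), while Csf2ra had -0.082 and 0.052. Pool means did not all follow the relation over cells. Young control pool 2 had Csf3r at 1.20 beside an early-list sum of 1017 and young control pool 3 had 6.35 beside 363. But aged antibiotic pool 3 had 1.44 beside 410.6, young antibiotic pool 2 (8 cells) 7.5 beside 482.6 and aged control pool 1 (7 cells) 0.714 beside 264.7. The 2 aged pools named were shallow, with medians of 763 (antibiotic pool 3) and 601 (control pool 1) raw UMIs.

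**Figure D3:**
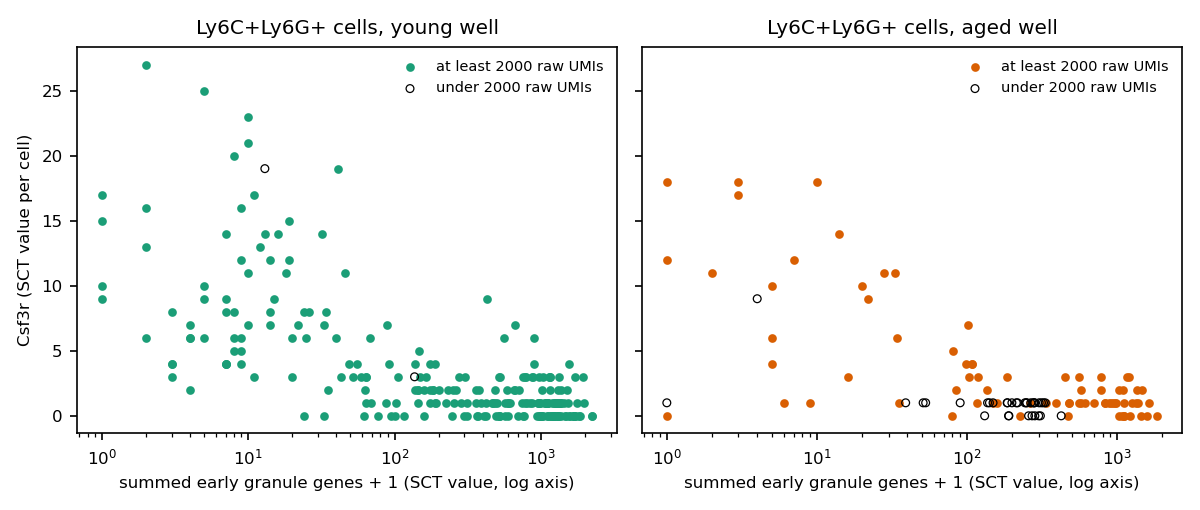
Csf3r value per cell (vertical axis) against the summed value of the 7 genes of the early list plus 1 (horizontal log axis, labelled early granule genes) in Ly6C+Ly6G+ cells of the young (left) and aged (right) well, with open points for cells under 2000 raw UMIs. Csf3r is high at low early-list sums in both wells, with rho of -0.69 and -0.47 over all cells, and -0.61 in aged cells of at least 2000 UMIs.

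The groups were compared within the 5 myeloid classes by limma on log2(pool mean + 0.05), with Benjamini-Hochberg adjustment over all genes of a class and a threshold of 0.05. All 4 receptors passed the filter on low values in every class. None was called in any of 5 contrasts (the antibiotic effect at 12 weeks, at 72 weeks and averaged, the change of that effect with age, and age in controls), which makes 0 of 100 fits. Of these fits, 15 had an unadjusted p under 0.05 by limma. The contrasts share pools and this count was not compared with the share over all genes, so it is not read as an excess. No alternative to limma was run across all genes, and exact permutation tests of single receptors are given beside the values. As background, limma called 0.137%, 3.23%, 5.4%, 0% and 2.66% of genes in microglia in these contrasts. It called 0.0224%, 0.123%, 0.0559%, 0% and 0.0447% in BAM, and 0%, 0.0145%, 0.0145%, 0% and 0% in Ly6C+Ly6G+ cells. In Ly6CLow cells the shares were 0%, 0%, 0%, 0% and 0.755%, and in Ly6CHigh cells 0% throughout. In the contrasts with no called gene, 139 to 1045 genes of a class had an unadjusted p under 0.05. A sixth contrast, aged minus young over both arms, was added after the pool values had been seen. It called 9.86% of genes in microglia, 0.145% in BAM, 7.38% in Ly6CLow cells, 1.25% in Ly6CHigh cells and 0.0289% in Ly6C+Ly6G+ cells, and 4 of its 20 receptor fits passed.

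Microglia of the aged well had less Csf1r and more Csf2rb. Csf1r was 19.1, 19.0 and 19.7 in young control pools and 19.2, 19.0 and 20.1 in young antibiotic pools. It was 16.9, 15.7 and 16.9 in aged control pools and 15.7, 15.7 and 16.9 in aged antibiotic pools. All 6 aged pools lay below all 6 young pools, and the arms overlapped within each age. Over both arms the log2 change was -0.25 (SE 0.047, adjusted p = 0.0017 by limma), and the exact two-sided permutation test within arms gave p = 0.005, the smallest that its 400 arrangements allow. In controls alone the change was -0.22 (SE 0.066), which did not pass (adjusted p = 0.091 by limma), and 3 pools against 3 cannot go below an exact p of 0.1. In cells of at least 2000 UMIs the change over both arms was -0.22 (adjusted p = 0.0020 by limma).

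Other microglial genes were lower in the same well. The summed level of 7 microglial markers was 105 to 113 in young pools and 90.5 to 104 in aged pools, without overlap. P2ry12 was 11.6 in the young and 9.52 in the aged well, while Tmem119 was 7.94 and 8.27. The ratio of Csf1r to P2ry12 was therefore alike (1.68 and 1.71), while that of Csf1r to Tmem119 was 2.45 in the young and 1.97 in the aged well. Whether the Csf1r difference is separate from that of the other markers was not tested.

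Csf2rb in microglia was 0.407, 0.449 and 0.429 in young control pools and 0.432, 0.398 and 0.433 in young antibiotic pools. Aged control pools had 0.469, 0.556 and 0.447, and aged antibiotic pools 0.535, 0.553 and 0.566. Only the lowest aged control pool reached the young range. The log2 change over both arms was 0.26 (SE 0.053, adjusted p = 0.0028 by limma; exact permutation p = 0.010), and in controls alone 0.17 (SE 0.075), which did not pass (adjusted p = 0.32 by limma). Csf2rb2 changed by 0.17 over both arms (SE 0.070, adjusted p = 0.14 by limma), which did not pass. Csf2ra (0.04, SE 0.045) and Csf3r (0.08, SE 0.047) did not pass over both arms, with adjusted p = 0.63 and 0.34 by limma.

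Antibiotics moved no receptor past the threshold in microglia, and 2 came near it. Csf2ra was 0.697, 0.698 and 0.719 in young control against 0.656, 0.628 and 0.604 in young antibiotic pools. It was 0.715, 0.727 and 0.699 in aged control against 0.603, 0.697 and 0.695 in aged antibiotic pools. Antibiotic pools lay below the control pools of their own age in 6 of 6 cases. In cells of at least 2000 UMIs the aged pools overlapped, at 0.660, 0.729 and 0.748 with antibiotics against 0.750, 0.766 and 0.722 in controls, and the difference over both ages was -0.10 (SE 0.043, adjusted p = 0.15 by limma). Over all cells the log2 difference over both ages was -0.13 (SE 0.045), with an adjusted p of 0.11 by limma over all genes and an exact permutation p of 0.005 within age, the smallest possible and unadjusted among 100 such tests.

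Csf3r was 1.32, 1.34 and 1.35 in young control pools and 1.33, 1.19 and 1.34 in young antibiotic pools, which overlapped. It was 1.47, 1.65 and 1.41 in aged control pools and 1.36, 1.24 and 1.24 in aged antibiotic pools, which did not. The log2 difference was -0.23 in aged mice (SE 0.066, adjusted p = 0.067 by limma) and -0.14 over both ages (SE 0.047, adjusted p = 0.081 by limma; exact permutation p = 0.015). The difference between the ages was -0.17 (SE 0.094, adjusted p = 0.81 by limma). The summed neutrophil markers in microglia were 0.641 to 0.740 in aged control and 1.13 to 3.04 in aged antibiotic pools. The part of neutrophil RNA in the Csf3r difference was not tested. Csf1r differed by -0.01 (SE 0.047) over both ages and Csf2rb by 0.07 (SE 0.053), with adjusted p = 0.94 and 0.50 by limma.

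**Figure D4:**
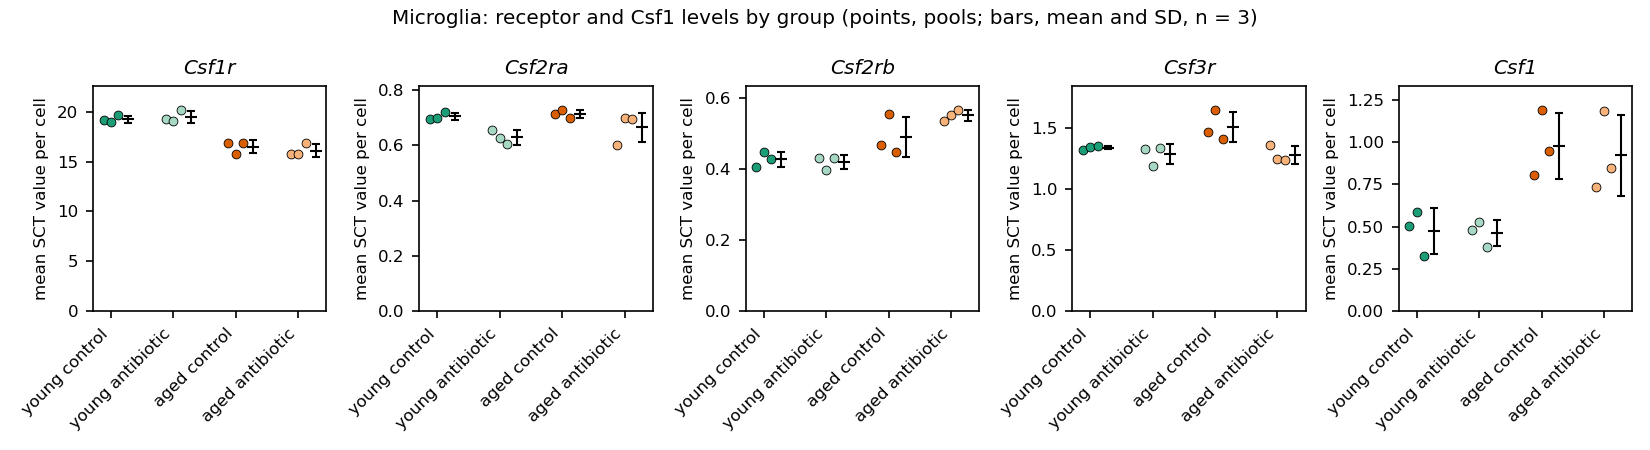
Mean SCT-corrected value per microglial cell (vertical axes, from 0) of the 4 receptor genes and the ligand gene Csf1 in each group, with points for pools and bars for mean and SD (n = 3). Csf1r is lower in all 6 aged pools (15.7 to 16.9) than in all 6 young pools (19.0 to 20.1), and Csf1 higher (0.732 to 1.19 against 0.327 to 0.589).

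Both GM-CSF receptor chains fell with age in Ly6CLow cells when all cells were counted, and neither passed in the deeper cells. Csf2ra in Ly6CLow cells was 2.16, 2.24 and 2.48 in young control, 2.79, 2.30 and 2.37 in young antibiotic, 1.94, 1.31 and 1.95 in aged control and 1.83, 1.94 and 1.70 in aged antibiotic pools. All aged pools lay below all young pools, and limma called the difference over both arms (-0.42, SE 0.12, adjusted p = 0.044). Csf2rb was called too (-0.54, SE 0.15, adjusted p = 0.033 by limma). In cells of at least 2000 raw UMIs the differences were 0.03 (SE 0.11, adjusted p = 0.97 by limma) and -0.09 (SE 0.15, adjusted p = 0.93 by limma), and Csf2ra pools ran from 2.19 to 2.71 in the young and from 2.12 to 2.71 in the aged well. Both calls were also close to the threshold. With each of the 12 pools left out in turn, Csf2ra was called in 2 and Csf2rb in 3 of the 12 fits. Adjusted p was 0.026 to 0.12 and 0.029 to 0.078 by limma, and the differences were -0.47 to -0.33 and -0.61 to -0.46. The median log2 change of all genes in Ly6CLow cells was itself -0.16 in this contrast.

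In Ly6CHigh cells no receptor was called. Over all cells, Csf2ra was 2.75, 4.05 and 3.15 in young control pools, 3.57 and 2.73 in 2 young antibiotic pools (the other had 6 cells), 1.06, 2.00 and 2.40 in aged control pools and 2.62, 1.76 and 1.13 in aged antibiotic pools. The difference over both arms was -0.87 (SE 0.24, adjusted p = 0.079 by limma), against a median of -0.38 over all genes. In the deeper cells it was -0.09 (SE 0.14, adjusted p = 0.96 by limma). Csf2rb changed sign, from -0.65 (SE 0.35) to 0.38 (SE 0.16), neither passing (adjusted p = 0.28 and 0.94 by limma). The 135 aged Ly6CHigh cells under 2000 UMIs averaged 0.400 Csf2ra and 0 Csf2rb, with Ly6c2, a monocyte gene, at 2.29 against 13.7 in the 112 deeper cells.

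**Figure D5:**
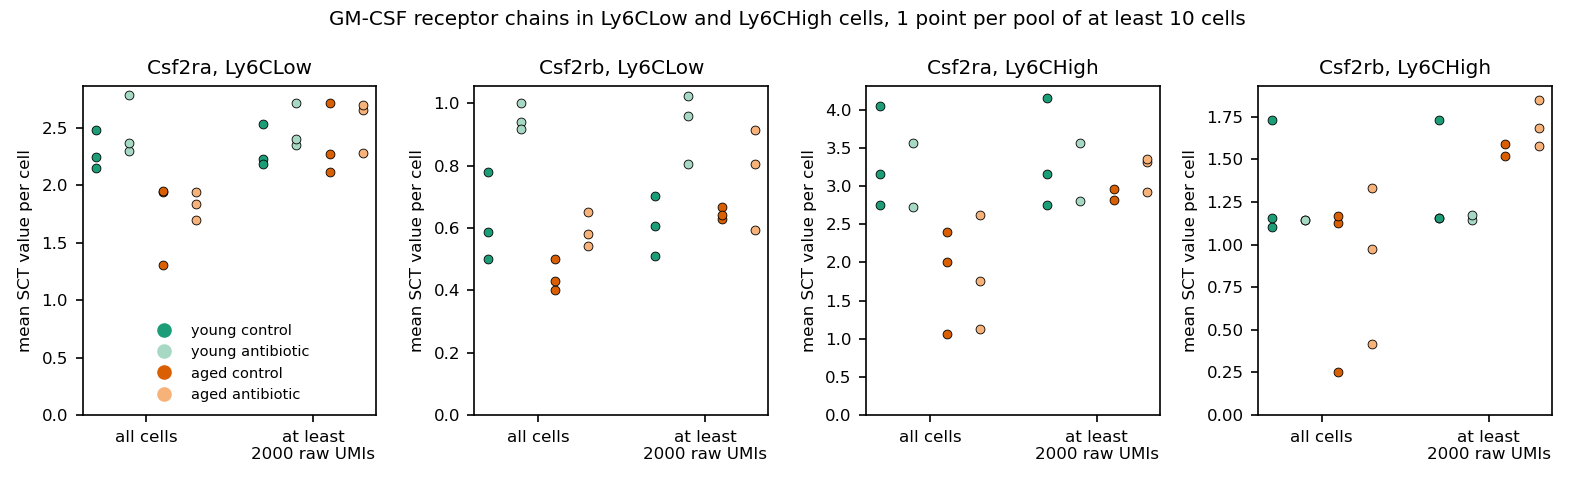
Mean SCT-corrected value per cell (vertical axes, from 0) of Csf2ra and Csf2rb in Ly6CLow and Ly6CHigh cells, over all cells (left of each panel) and over cells of at least 2000 raw UMIs (right), with 1 point per pool of at least 10 cells. Aged pools lie below young pools for Csf2ra over all cells (1.31 to 1.95 against 2.16 to 2.79 in Ly6CLow cells) and overlap them in the deeper cells (2.12 to 2.71 against 2.19 to 2.71).

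Csf2rb in Ly6CLow cells also differed with antibiotics, again without passing. It was 0.586, 0.780 and 0.5 in young control against 1, 0.939 and 0.918 in young antibiotic pools, and 0.400, 0.431 and 0.5 in aged control against 0.542, 0.652 and 0.580 in aged antibiotic pools. Antibiotic pools were above the controls of their own age in 6 of 6 cases. The log2 difference over both ages was 0.49 (SE 0.15, adjusted p = 0.79 by limma; exact permutation p = 0.005, the smallest possible). Over cells of at least 2000 UMIs it was 0.40 (SE 0.15, adjusted p = 0.80 by limma).

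No receptor was called in BAM or Ly6C+Ly6G+ cells in any of the 6 contrasts. Csf1r in BAM ran from 9.10 to 13.8 in young and from 9 to 12.1 in aged pools, with a log2 change over both arms of -0.14 (SE 0.11, adjusted p = 0.79 by limma). Csf3r in BAM was 0.703, 0.550 and 0.532 in aged control and 0.394, 0.295 and 0.5 in aged antibiotic pools, a difference of -0.55 (SE 0.29, adjusted p = 0.71 by limma). The summed microglial markers in BAM were 23.5 to 38.5 in aged control and 11.9 to 20.2 in aged antibiotic pools. Their part in the Csf3r difference was not tested. Csf3r in Ly6C+Ly6G+ cells differed by -0.11 over both ages (SE 0.38, adjusted p = 0.97 by limma), from 9 pools, since 3 held fewer than 10 of these cells. It became 0.12 in deeper cells, and 0.27, 0.13, 0.09 and 0.15 without aged antibiotic pool 3, aged control pool 3, young antibiotic pool 3 and young control pool 3.

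Csf1 was the ligand gene with enough signal in microglia to be tested. It was 0.507, 0.589 and 0.327 in young control, 0.479, 0.527 and 0.379 in young antibiotic, 0.803, 1.19 and 0.945 in aged control and 0.732, 1.19 and 0.844 in aged antibiotic pools. Every aged pool stood above every young pool. Csf1 rose with age in controls by 0.99 on the log2 scale (SE 0.18, adjusted p = 0.0036 by limma) and over both arms by 0.95 (SE 0.13, adjusted p = 5.1e-05 by limma; exact permutation p = 0.005, the smallest possible). It was above 0 in 12.8% to 17.2% of microglia in young pools and in 19.4% to 29.5% in aged pools. Antibiotics did not move it past the threshold (-0.05 over both ages, SE 0.13, adjusted p = 0.86 by limma).

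Csf1r and Csf1 were then set side by side within pools, a comparison added after the Csf1 result had been seen. Among microglia of 5000 to 10000 raw UMIs, Csf1r averaged 18.9 over pools in cells with Csf1 and 19.4 in cells without it, and it was lower with Csf1 in 9 of 12 pools (mean difference -0.53 ± 0.60, SD). P2ry12 was lower in 10 of 12 pools, at 11.03 against 11.8. Over all microglia Csf1r was lower with Csf1 in 5 of 12 pools, so the direction depended on the cells compared.

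The other ligands were scarce in these cells. Il34 had class means of at most 0.0289, Csf3 at most 0.0297 and Csf2 at most 0.0436 outside ILCs. Il34 is made largely by neurons in the brain, which are not among the labelled classes. ILCs held 83.3% of all Csf2 values. Their class also carried NK genes, with Gzma at 24.1 in the young and 11.1 in the aged well. Among receptor partners, Il3ra, the IL-3 receptor alpha chain, was highest in Ly6CHigh cells (0.346 ± 0.157, n = 11) and lowest in microglia (0.0401 ± 0.0110, n = 12), and Il5ra had its highest mean in B cells (0.0490 ± 0.0395, n = 12). Flt3, a related receptor kinase of dendritic cells and progenitors, was highest in Ly6CLow cells (0.286 ± 0.103, n = 12).

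The wider list held 51 genes of the pathway, of which Il3 was not among the table's genes. In microglia 38 were tested. Antibiotics in young mice changed 0 of them, in aged mice 1 rose and 1 fell, and over both ages 1 rose and 3 fell, beside the 3.23% and 5.4% of all genes given above. Inpp5d, which encodes the inositol phosphatase SHIP-1 that restrains receptor signals, rose over both ages by 0.19 (SE 0.042, adjusted p = 0.012 by limma) from 2.81 ± 0.114 to 3.21 ± 0.225 (SD, n = 6 each). Irf8, a transcription factor of microglia and monocytes, fell by 0.26 (SE 0.044, adjusted p = 0.0021 by limma) from 3.78 ± 0.183 to 3.15 ± 0.196. Bcl2a1b, a survival gene, fell by 0.31 (SE 0.063, adjusted p = 0.0075 by limma), and Ptpn6, which encodes the phosphatase SHP-1, fell by 0.19 (SE 0.048, adjusted p = 0.025 by limma). In aged mice alone Inpp5d rose by 0.23 (adjusted p = 0.036 by limma) and Irf8 fell by 0.34 (adjusted p = 0.0061 by limma). With each pool left out in turn, Irf8 was called in 12 of 12 fits in both contrasts and Inpp5d over both ages in 12 of 12, but Inpp5d in aged mice and Ptpn6 in 6 of 12 each. Bcl2a1b belongs to a family of near-identical copies, so its value is uncertain. The median log2 change of the 38 genes over both ages was -0.04, beside -0.01 over all genes.

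With age, 2 of the 38 rose in control microglia and 0 fell, beside 2.66% of all genes called, and over both arms 6 rose and 2 fell, beside 9.86%. The count in controls is near that background. Csf1 was one of the 2, and Runx1, a transcription factor of the myeloid lineage, was the other, at 0.31 (SE 0.060, adjusted p = 0.0075 by limma). Over both arms Runx1 rose by 0.27, Ccnd1, a cyclin D gene, by 0.45, Pim1, a kinase gene induced by cytokine receptors, by 0.31, Myc by 0.32 and Cebpb by 0.25, with adjusted p of 0.00026, 0.00030, 0.017, 0.042 and 0.029 by limma. Cebpa, the second C/EBP gene of the list, fell by 0.20 with an adjusted p of 0.046 by limma. With each pool left out in turn, Csf1, Runx1 and Ccnd1 were called in 12 of 12 fits over both arms, Pim1 in 9, Cebpb and Myc in 5 each and Cebpa in 4. The median over the 38 genes was 0.01, beside 0.02 over all genes.

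In Ly6CLow cells 44 of the list were tested. Age in controls raised 1, Kit, the stem cell factor receptor gene, by 2.22 (SE 0.46, adjusted p = 0.028 by limma), beside 0.755% of all genes called. The summed ILC markers in Ly6CLow cells moved with it, at 0.341 to 1.03 in young and 2.33 to 5.11 in aged pools, and their part in the result was not tested. Kit was above 0 in 1, 0 and 0 cells of the young control pools and in 4, 6 and 3 cells of the aged control pools, and without the 3 highest cells of each pool the aged control levels fell from 0.429, 0.236 and 0.105 to 0.0312, 0.0870 and 0. Over both arms 3 rose (Csf1, Inpp5d and Kit) and 3 fell (Tyrobp, Ccnd1 and Bcl2a1b), beside 7.38% of all genes. Tyrobp, which encodes the adaptor DAP12 that relays Csf1r signals, fell by 0.30 over all cells but differed by 0.09 in those of at least 2000 UMIs. In those deeper cells Csf1 (1.63), Inpp5d (0.37), Bcl2a1b (-0.34) and Ccnd1 (-0.46) did not pass either, with adjusted p of 0.14, 0.59, 0.53 and 0.71 by limma, and Kit fell below the filter on low values. With each pool left out in turn over all cells, Tyrobp was called in 3 of 12 fits, Ccnd1 in 4, Kit in controls in 8, and Csf1, Inpp5d and Bcl2a1b in 12. None of the 41, 41 and 38 genes tested in BAM, Ly6CHigh and Ly6C+Ly6G+ cells was called.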

How the data were processed

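CITE-seq libraries of mouse brain immune cells were prepared on the 10x 3′ assay, per the labels' protocols. Cell Ranger 3.0.2, Seurat 3.0.1 and the build mm10 are named in the submitters' processing notes. The RNA table deposited by the authors holds a score per gene and cell, the SCTransform-corrected value. All values are whole and sum to the SCT total of each of the 13052 cells, and no count model was fitted to them. Raw UMI and antibody tag counts were deposited by the authors, as were cell types, hashtag calls and singlet calls (13052 of 13052 cells), and no further doublet filter was applied. Of the metadata, 32 columns stayed outside every step.

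Each hashtag pool served as 1 replicate. Whether pools were independent beyond separate brains is not given, so p-values measure the spread between pools. Mean values per pool and type (at least 10 cells) were analysed as log2(mean + 0.05) in limma 3.58.1 (R 4.3.3) with a trended prior, for genes with a mean of at least 0.05, in types with at least 2 such pools per group. The fit was tested on simulated data. A fold on this scale understates changes of low genes. Exact permutation tests were two-sided. Wilson intervals at 95% cover counting error only. Python 3.11.15 with scipy 1.17.1 was used for the rest.

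The receptors, gene lists, tests and markers were chosen with earlier results of these data known. Named genes were the 4 receptors, listed pathway genes past the threshold, the ligands and receptor partners, and the 5 genes most like each receptor over types with at least 50 cells. The contrast of age over both arms, the Csf1r to P2ry12 and Csf1r to Tmem119 ratios, the split by Csf1, the Kit check, the ILC values and the depth split of levels were added after seeing the data. Alternatives were a pseudocount of 0.5, no filter, means of per-cell logs, weights by cells, at least 20 cells, at least 2000 UMIs, per-cell totals, fits of the compared groups only and each pool left out. Some genes that these rules select are not reported here by name.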

Additional observations from a re-analysis of the deposited data

How the results depend on the processing

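The number of receptors called was recomputed under each alternative. Means of per-cell log values called 1 receptor, Csf3r, in microglia for antibiotics in aged mice (-0.14, adjusted p = 0.019 by limma) and over both ages (-0.09, adjusted p = 0.022), and 1 in Ly6CHigh cells for age over both arms. For Ly6CLow cells and age over both arms, the 2 calls became 1 with no filter and with weights by cells, and 0 with cells of at least 2000 UMIs and with values divided by each cell's total. Leaving out single pools gave 0 to 2 calls there and 0 to 1 in Ly6CHigh cells. The 2 microglial calls for age over both arms held under every alternative run, with adjusted p from 0.00063 to 0.0104 for Csf1r and 0.0013 to 0.0109 for Csf2rb. Csf1 by age in controls was lost with no filter (adjusted p = 0.066). Signs turned for Csf2ra (0.027) and Tyrobp (0.0909) in Ly6CLow cells and Csf2rb in Ly6CHigh cells (0.38) at 2000 UMIs, and for Csf3r in Ly6C+Ly6G+ cells over both ages (0.12 at 2000 UMIs, and -0.48 to 0.27 with each pool left out in turn). The cause was not tested. No paired analysis was possible because the labels give the groups no shared replicate numbers. Ly6CHigh cells could not be fitted with at least 20 cells per pool, nor Ly6C+Ly6G+ cells. Depth limits what the aged Ly6CHigh cells show, with a median of 951 UMIs.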

Other observations

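Csf2, the gene of GM-CSF, stood out among ILCs by group, a pattern chosen after its values were seen and not tested, since ILCs were outside the planned fits. The mean value per cell was 2.55, 1.57 and 4.58 in the aged control pools, from 11, 87 and 31 cells. It was 0.125, 0 and 0.280 in the aged antibiotic pools, from 16, 5 and 25 cells. Young control pools had 0.375, 0.560 and 0.156 and young antibiotic pools 0.0556, 0 and 0.0333. The aged control pools stood above all others, also without the aged antibiotic pool of 5 cells. Few cells carried these values, and the shares of cells overlapped between groups. By pool, Csf2 was above 0 in 18.2%, 14.9% and 45.2% of aged control ILCs, against 6.25%, 20% and 9.38% in young control, 12.5%, 0% and 16% in aged antibiotic and 5.56%, 0% and 3.33% in young antibiotic pools. Aged control pool 3 held 14 of the 29 aged control cells with Csf2. Single cells reached 27, 41 and 49 in the aged control pools against 2 in the aged antibiotic pools. Aged control pool 1 had Csf2 above 0 in 2 of 11 cells, and its mean rested almost wholly on the cell at 27. The make-up of the class also differed by well, with summed ILC markers of 3.91 in the young and 12.7 in the aged well. The GM-CSF receptor chain Csf2ra was above 0 in 10.3% of ILCs.

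CD117 antibody tags, the protein of Kit, were 0.210% to 0.334% of all tags in aged control and 0.0645% to 0.111% in young control Ly6CLow cells. In antibiotic pools the ranges overlapped, at 0.125% to 0.275% in aged and 0.0570% to 0.150% in young pools. Tags per cell were 2.19 to 2.43 in aged control and 5.49 to 9.07 in young control pools, and antibody depth differed between the wells.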
